A study of Mus musculus with 6 samples.

Results

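The GADD45 genes (growth arrest and DNA damage inducible) were described here in mouse ovarian granulosa cells (GCs) taken 6 h after cyclophosphamide (CTX), an alkylating anticancer drug. The rows named Gadd45a, Gadd45b, Gadd45g and Gadd45gip1 were taken from the deposited expression table, which gave 4 of its 54532 genes. All 4 were among the 14463 genes that had a mean level of at least 0.5 FPKM (fragments per kilobase of gene length, corrected for depth) and were tested. The GCs came from ICR females that were 3 weeks old. All mice, those of the control group included, had received 5 IU of PMSG, a gonadotropin that makes follicles grow, 22 h before treatment. They were then given either a single intraperitoneal dose of 120 mg/kg CTX or phosphate buffered saline (PBS), and no transgene or knockout is named for either group. Each group had 3 samples, and the GCs of 3 mice were pooled in each sample, so the spread between samples is a spread between pools. The study asked whether the apoptosis of GCs after CTX goes along with altered gene expression.

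GADD45 proteins are small acidic proteins without enzyme activity of their own, and their genes are switched on by genotoxic and other stresses in most tissues. They bind and activate the kinase MAP3K4 upstream of p38 and JNK, inhibit the CDK1 and cyclin B1 kinase at the entry into mitosis, bind PCNA and p21, and have been linked to active DNA demethylation. Gadd45a is a classic target of the tumour suppressor p53, Gadd45b is known as a gene induced by NF-kB and TGF-beta, and Gadd45g as a gene induced by cytokines. Gadd45gip1 is not a relative of the other 3 genes by sequence. It encodes CRIF1, a protein found through its binding to GADD45 proteins, which is also a part of the large subunit of the mitochondrial ribosome. In the ovary, GCs surround the oocyte and are among the dividing cells that alkylating agents injure.

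Gadd45a (ENSMUSG00000036390) lay at chr6:67035096-67037457 on the minus strand of the GRCm38 build. Gadd45b (ENSMUSG00000015312) lay at chr10:80930073-80932204 on the plus strand, and Gadd45g (ENSMUSG00000021453) at chr13:51846678-51848468 on the plus strand. Gadd45gip1 (ENSMUSG00000033751) lay at chr8:84831522-84835482 on the plus strand. In GENCODE M21, which uses the same build, the main transcripts of Gadd45a, Gadd45b and Gadd45g each had 4 exons, all of them coding in part, whereas that of Gadd45gip1 had 2. Their coding lengths without the stop codon were 495 bases for Gadd45a, 480 for Gadd45b, 477 for Gadd45g and 666 for Gadd45gip1. The gene lengths behind the FPKM values, 1764, 1589, 1173 and 2494 bases, equalled the summed exon lengths of these genes in GENCODE M21.

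Reads of related genes can be confused, so the coding sequences of the 3 paralogs were compared. Aligned end to end, Gadd45a and Gadd45b shared 61.7% of 480 aligned coding bases. Gadd45a and Gadd45g shared 64.9% of 467, and Gadd45b and Gadd45g 66.7% of 468. The longest run of identical bases between any transcripts of 2 of these genes was 17 bases, between Gadd45a and Gadd45g. The 60 coding bases most alike in all 3 genes are printed here from the GENCODE M21 transcripts, with the 16 positions that are not the same in all 3 in capitals, to show that even there the genes can be told apart. The stretch covers coding bases 208 to 267 of Gadd45a and Gadd45b and 217 to 276 of Gadd45g.
Gadd45a: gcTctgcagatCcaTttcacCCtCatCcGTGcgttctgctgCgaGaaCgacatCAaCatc
Gadd45b: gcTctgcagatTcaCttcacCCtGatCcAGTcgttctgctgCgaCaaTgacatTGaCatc
Gadd45g: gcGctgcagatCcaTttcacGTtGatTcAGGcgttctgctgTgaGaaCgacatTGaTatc

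The 250 bases before the RefSeq start of Gadd45a, Gadd45b and Gadd45g are given next, because these 3 genes were all higher after CTX. They are from GRCm38.p6, read on the strand of the gene. RefSeq promoters were at hand for 3 of the 4 genes. Capitals mark the CCAAT box (CCAAT), the octamer (ATGCAAAT), the TATA box (TATAAA), the E-box (CACGTG), the EGR site (GCGNGGGCG) and the p53 half-site, each searched on both strands. The windows were chr6:67037408-67037657 for Gadd45a, chr10:80929841-80930090 for Gadd45b and chr13:51846425-51846674 for Gadd45g. The gene spans given above for Gadd45a and Gadd45b begin inside these windows, and all positions below count from the RefSeq start.
Gadd45a: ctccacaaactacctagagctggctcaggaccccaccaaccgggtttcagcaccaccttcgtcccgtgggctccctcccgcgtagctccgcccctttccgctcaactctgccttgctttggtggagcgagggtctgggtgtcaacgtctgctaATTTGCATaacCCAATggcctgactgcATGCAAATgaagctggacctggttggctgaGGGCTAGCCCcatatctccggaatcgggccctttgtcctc
Gadd45b: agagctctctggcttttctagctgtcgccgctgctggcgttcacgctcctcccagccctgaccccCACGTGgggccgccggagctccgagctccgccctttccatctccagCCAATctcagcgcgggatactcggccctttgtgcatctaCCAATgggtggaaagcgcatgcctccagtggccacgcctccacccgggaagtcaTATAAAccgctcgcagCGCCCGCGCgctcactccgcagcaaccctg
Gadd45g: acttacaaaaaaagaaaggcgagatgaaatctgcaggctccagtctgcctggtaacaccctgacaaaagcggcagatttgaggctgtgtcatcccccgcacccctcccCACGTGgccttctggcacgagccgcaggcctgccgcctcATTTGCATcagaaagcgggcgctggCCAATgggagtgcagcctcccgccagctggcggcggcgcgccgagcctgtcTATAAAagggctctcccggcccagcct

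Each of the 3 windows held at least 1 CCAAT box, which 33.8% of 32851 promoters held in a window of the same length. An octamer stood in the windows of Gadd45a, at 2 places, and Gadd45g, against 1.6% of promoters. The CCAAT box of Gadd45a, 86 to 82 bases before the start, stood between its 2 octamers. A TATA box was found in the windows of Gadd45b and Gadd45g (12.4% of promoters), 46 to 41 and 27 to 22 bases before the start, and not in that of Gadd45a. The same 2 windows each held an E-box (6.02%). The window of Gadd45b alone held an EGR site (4.7%). That of Gadd45a alone held a p53 half-site (7.13%), 40 to 31 bases before the RefSeq start but inside the gene span given above. The well-known p53 element of Gadd45a lies in an intron, outside this window. A GC box (GGGCGG, 32.7%) was present in the windows of Gadd45a and Gadd45b and is not capitalised. No match was found in any of the 3 windows for the CRE (TGACGTCA, 1.55%), its shorter core (TGACG, 17.8%, which the CRE contains), the AP-1 site (TGANTCA, 6.75%), the FOXO core (GTAAACA, 3.17%), the CArG box (1.47%) or the NF-kB site (3.9%). These are matches of letters only, and binding was not measured. The GC content was 59.2%, 65.2% and 62% for Gadd45a, Gadd45b and Gadd45g, against a median of 52.4% over all promoters.

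Reads rebuilt from FPKM and gene length came to 16005869 in the sample with the fewest and 18455011 in that with the most. All 10 granulosa markers were above 1 FPKM on average, and their summed level was 11750 to 12980 FPKM after PBS and 10590 to 11250 FPKM after CTX. Most of this sum was Inha, at 9205 to 10402 FPKM after PBS and 8556 to 9180 FPKM after CTX. Of the 10 markers, 6 had all CTX samples below all PBS samples and 1 had them above (14.1% and 15.0% of tested genes). No marker was called, and 3 were lower and 0 higher at an unadjusted p below 0.05 by limma. One library stood apart. CTX replicate 2 had a score of 74.7 on the first principal component, which held 46.8% of the variance, and the other 5 samples lay between -26.6 and 13.2. In that sample Cyp19a1, the aromatase of differentiated GCs, was at 6.61 FPKM (32.5 to 62.4 in the others), whereas Amh, a hormone of GCs in smaller follicles, was at 179 FPKM (48.4 to 85.5). Its summed level of 8 leukocyte markers was 66.1 FPKM, while the PBS samples held 21.0 to 24.5 FPKM and the other CTX samples 35.3 and 27.4. None of the 8 was at 0 in any sample, but 4 of them, among them Ptprc (CD45), were below 1 FPKM on average. In CTX replicate 2, Lyz2 made up 45.8 FPKM of the sum and Cd68 8.97 FPKM. Lyz2, Cd68, Adgre1, Csf1r, C1qa and Cd74 were above all PBS samples there. Ptprc (0.092 FPKM, 0.071 to 0.098 after PBS) and Itgam (0.056 FPKM, 0.086 to 0.217 after PBS) were not above them there. The summed level of 4 theca markers was 609 FPKM there and 1983 to 3040 elsewhere, and Hsd3b1 alone held 607 FPKM of it there. Cyp17a1 was also lowest there (1.25 FPKM). Insl3 (0.81 FPKM, 0.27 to 0.40 after PBS) and Gli1 (0.23 FPKM, 0.21 to 0.27 after PBS) were not. The summed levels after PBS and after CTX were 4.58 to 5.52 and 1.803 to 4.21 FPKM for 6 endothelial markers, 33.9 to 73.2 and 47.6 to 84.5 for 7 oocyte markers, 19.3 to 20.1 and 25.2 to 36.6 for 6 stromal and smooth muscle markers, of which Acta2 was called higher, and 319 to 454 and 138 to 497 for 5 red cell genes. Values without CTX replicate 2 are given below for the members, for some of their ratios and shares, and for the calls of the p53 target and immediate-early lists. They are not given for other single genes, whose values all include this library and may rest on it. In bulk RNA, a change in the make-up of the cells and a change within the cells cannot be told apart.

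After CTX, Gadd45a, Gadd45b and Gadd45g stood higher than after PBS in all samples, and Gadd45gip1 did not. Gadd45g rose 2.71-fold and passed the test. Gadd45b had the largest mean difference of the 4, 5.52-fold, but its 3 CTX samples were so far apart that it did not pass. Gadd45a was 1.84 times as high on average and did not pass either.

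**Figure D1:**
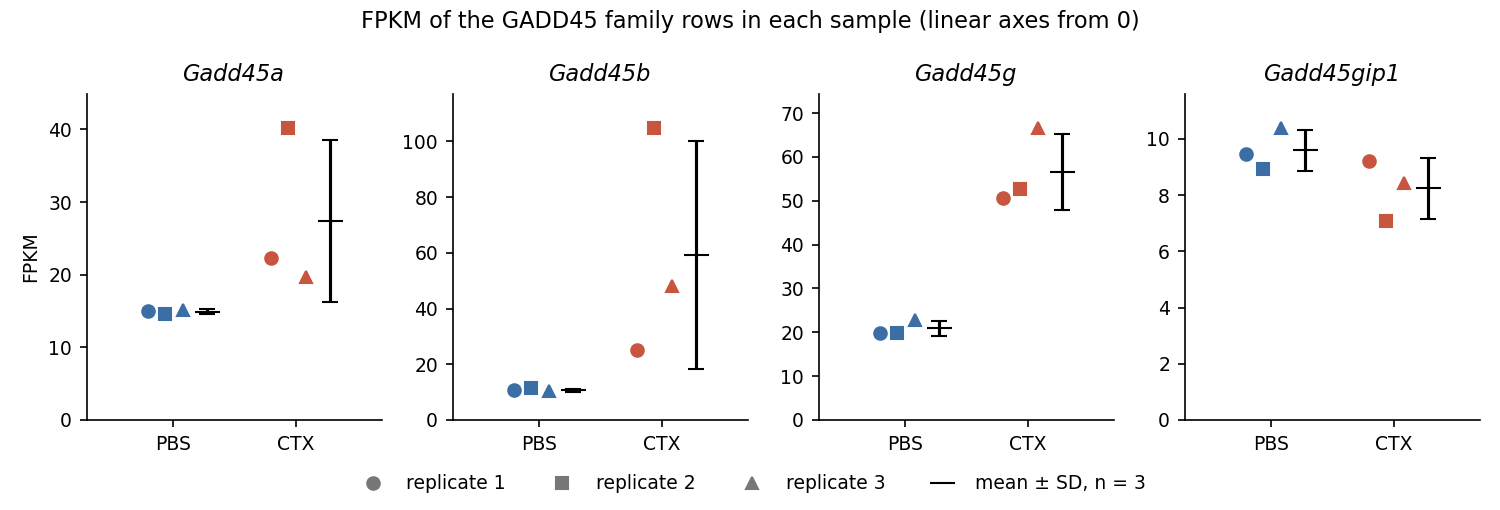
FPKM (linear axes from 0) of Gadd45a, Gadd45b, Gadd45g and Gadd45gip1 in the 3 PBS and 3 CTX samples, with 1 point per sample and the mean ± SD beside the points. The CTX points of the first 3 genes all lie above the PBS points, with CTX replicate 2 at 40.1 FPKM for Gadd45a and 104.6 for Gadd45b, and those of Gadd45gip1 overlap.

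Gadd45a was at 15.0, 14.5 and 15.2 FPKM in PBS replicates 1, 2 and 3, and at 22.3, 40.1 and 19.7 FPKM in CTX replicates 1, 2 and 3. The groups did not overlap, and CTX replicate 2 was far above the other 2 CTX samples. The log2 fold change was 0.80 (SE 0.26, 95% interval 0.18 to 1.42, limma adjusted p = 0.181). Without CTX replicate 2 it was 0.49, with an adjusted p of 0.029, so that Gadd45a then passed the test of p but not the 2-fold rule.

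Gadd45b was at 10.6, 11.3 and 10.3 FPKM after PBS and at 25.1, 104.6 and 48.0 FPKM after CTX. The groups again did not overlap, and the CTX samples themselves spanned 4.17-fold. The log2 fold change was 2.21 (SE 0.48, 95% interval 1.07 to 3.36), and the adjusted p of limma was 0.089. The call depended on which CTX samples were in the fit. Without CTX replicate 2 the log2 fold change was 1.68 with an adjusted p of 0.025, and without CTX replicate 1 it was 2.71 with an adjusted p of 0.020, both past the rule for a call. Without CTX replicate 3 it was 2.25 with an adjusted p of 0.221.

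Gadd45g was at 19.8, 19.9 and 22.9 FPKM after PBS and at 50.5, 52.8 and 66.5 FPKM after CTX. Its 3 CTX samples lay close together, and all were more than 2-fold above every PBS sample. The log2 fold change was 1.43 (SE 0.12, 95% interval 1.13 to 1.72, limma adjusted p = 0.0043). It was 1.47 without CTX replicate 2, with an adjusted p of 0.0041.

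Gadd45gip1 was at 9.47, 8.94 and 10.4 FPKM after PBS and at 9.23, 7.07 and 8.44 FPKM after CTX. The groups overlapped, and the lowest sample was CTX replicate 2. The log2 fold change was -0.22 (SE 0.12, 95% interval -0.51 to 0.06, limma adjusted p = 0.336). Without CTX replicate 2 it was -0.12, with an adjusted p of 0.524.

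Counted together, 1 of the 4 genes, Gadd45g, was called higher (adjusted p below 0.05 and more than 2-fold), a rule passed upward by 0.802% of all tested genes. None was called lower (0.159% of all tested genes), by limma or by limma voom on the rebuilt reads, and at an unadjusted p below 0.05 the counts by limma were 3 higher and 0 lower, where 10.5% of all tested genes were higher and 9.10% lower. Without the 2-fold rule the counts were the same, 1 higher and 0 lower, where 1.40% of tested genes were higher and 0.360% lower. All CTX samples were above all PBS samples in 3 of the 4 genes, and in 15.0% of tested genes. None of the 4 had all CTX samples below all PBS samples, which 14.1% of tested genes had. In an exact two-sided permutation test of the single gene, p was 0.10 for Gadd45a, Gadd45b and Gadd45g and 0.20 for Gadd45gip1, and 0.10 is the smallest p that 3 samples against 3 can give.

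The spread among CTX samples separated the 3 paralogs. The coefficient of variation after CTX was 40.7% for Gadd45a, 69.1% for Gadd45b and 15.3% for Gadd45g, and 13.2% for Gadd45gip1. After PBS it was between 2.25% and 8.42% for the 4 genes. Counting error alone gives 1.84% to 6.16% at these levels, since 264 to 2949 reads stood behind each value, and the spread of all 4 genes after CTX was larger than their own counting error, which leaves out differences between pools of mice. After PBS, the spread of Gadd45a (2.25%) and Gadd45b (5.06%) was below their own counting error (4.6% to 4.8% and 5.5% to 6.2%). The spread of Gadd45g (8.42%) and Gadd45gip1 (7.52%) after PBS was above theirs. Intervals from counting cover counting error only. In CTX replicate 2 the level of Gadd45b rested on 2949 reads, and its 95% Poisson interval was 101 to 108 FPKM.

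The order of the levels changed with treatment. FPKM is per length, so the genes can be compared within a sample, but only as far as the lengths hold. The lengths sum the exons of all transcripts of a gene. For Gadd45a this was 1764 bases, where the main transcript had 1223, and for Gadd45g 1173, where it had 1071. The order of the genes and their shares in a sum depend on these lengths, and other lengths were not tried. After PBS, Gadd45g was the highest (20.9 ± 1.76 FPKM, SD, n = 3), followed by Gadd45a (14.9 ± 0.34), Gadd45b (10.7 ± 0.54) and Gadd45gip1 (9.60 ± 0.72). The last 2 were not apart beyond their spread, since Gadd45gip1 was the higher of them in PBS replicate 3. After CTX, Gadd45b (59.2 ± 40.9 FPKM) and Gadd45g (56.6 ± 8.64) had like means, and Gadd45b was above Gadd45g only in CTX replicate 2. Gadd45a followed at 27.4 ± 11.1 FPKM and Gadd45gip1 at 8.25 ± 1.09. Among all tested genes, the mean level of Gadd45g was above 80.9% of genes after PBS and above 93.6% after CTX. The same share went from 65.7% to 93.9% for Gadd45b, from 73.5% to 85.8% for Gadd45a and from 62.6% to 57.8% for Gadd45gip1.

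The summed level of the 3 paralogs was 45.4, 45.8 and 48.3 FPKM after PBS and 97.9, 197 and 134 FPKM after CTX. The sum was thus 3.08-fold higher after CTX (46.5 ± 1.60 against 143 ± 50.4 FPKM, SD, n = 3, exact two-sided permutation p = 0.10), with every CTX sample above every PBS sample. Its make-up also differed. Gadd45a made up 33.0%, 31.8% and 31.4% of the sum after PBS and 22.8%, 20.3% and 14.7% after CTX. Gadd45b made up 23.4%, 24.8% and 21.2% after PBS and 25.6%, 52.97% and 35.8% after CTX. For both the groups did not overlap (exact permutation p = 0.10, 0.15 after adjustment over the 3 shares). The share of Gadd45b was 15.0 percentage points higher after CTX, and 7.57 points higher without CTX replicate 2. The share of Gadd45g was 44.8 ± 2.20% after PBS and 42.6 ± 13.8% after CTX, with CTX replicate 2 at 26.7% and the other 2 CTX samples at 51.6% and 49.6% (exact permutation p = 1). Its share was 5.76 percentage points higher after CTX without CTX replicate 2.

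**Figure D2:**
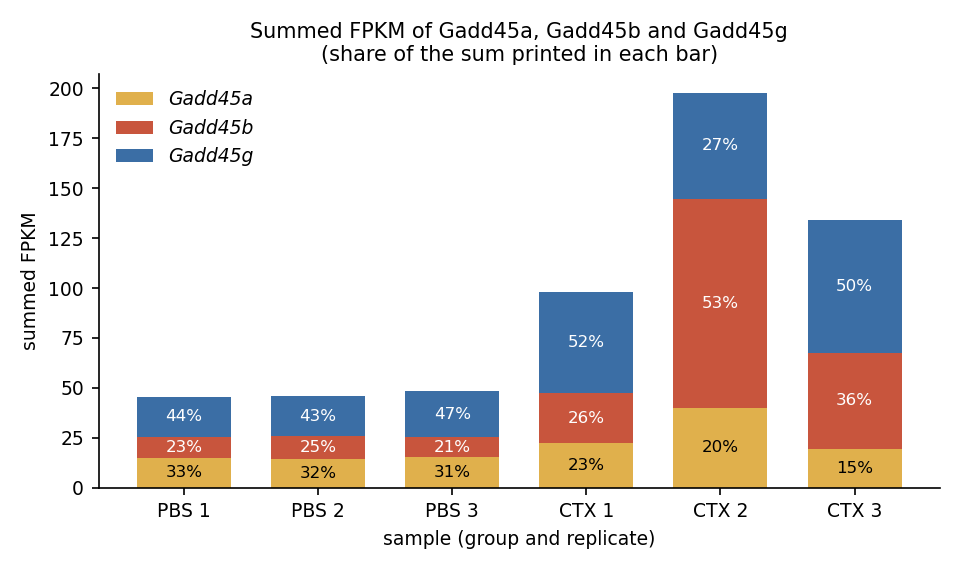
Summed FPKM of Gadd45a, Gadd45b and Gadd45g in each sample (bars from 0, 1 bar per sample), with the share of each gene in the sum. The PBS bars reach 45.4 to 48.3 FPKM and the CTX bars 97.9 to 197 FPKM, and the largest part of CTX replicate 2 is Gadd45b, whereas Gadd45g is the largest part of the other 5 bars.

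Whether the members differed from each other in their change was tested on the log2 ratio of 2 genes within a sample, which does not depend on the scaling between samples. The 6 pairs of the 4 genes were compared, and p was adjusted over them. Gadd45a over Gadd45b was 0.49, 0.36 and 0.56 after PBS and -0.17, -1.38 and -1.28 after CTX, so the ratio fell by 1.41 with no overlap (exact permutation p = 0.10, adjusted p = 0.15). Gadd45a over Gadd45g was -0.40, -0.45 and -0.59 after PBS and -1.17, -0.39 and -1.75 after CTX. The ratio changed by -0.63, and the groups overlapped through CTX replicate 2 alone (adjusted p = 0.40, exact permutation). Without CTX replicate 2 the change was -0.98, and without CTX replicate 3 it was -0.30. Gadd45b over Gadd45g changed by 0.79, also with overlapping groups (adjusted p = 0.36, exact permutation), and that value was 0.21 without CTX replicate 2 and 1.21 without CTX replicate 1. Relative to Gadd45gip1, the ratios of Gadd45a, Gadd45b and Gadd45g changed by 1.02, 2.44 and 1.65, each without overlap and each at the smallest p the design allows, 0.10 (adjusted p = 0.15). Without CTX replicate 2 these were 0.61, 1.801 and 1.59.

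Other GADD genes and a close relative of one of them rose, as Gadd45g did. The list held Ppp1r15a (GADD34) and its relative Ppp1r15b, which direct the phosphatase that reverses the block of translation initiation under stress, and Ddit3 (GADD153 or CHOP), a transcription factor of the integrated stress response. All 3 were higher at an adjusted p below 0.05 (1.40% of all tested genes). In all 3, every CTX sample was above every PBS sample (15.0% of all tested genes). Of the 3, 1, Ppp1r15a, was also called higher (0.802% of all tested genes). Ppp1r15a was at 39.0, 40.4 and 39.7 FPKM after PBS and 90.0, 91.7 and 102 FPKM after CTX, a log2 fold change of 1.25 (SE 0.07, limma adjusted p = 0.0010). Ddit3 had a log2 fold change of 0.81 (SE 0.12, adjusted p = 0.031) and Ppp1r15b one of 0.47 (SE 0.07, adjusted p = 0.033). The median of the list was 0.81, against -0.01 over all tested genes.

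The partners through which GADD45 proteins act on the cell cycle gave 1 gene of 4 called higher (0.802% of all tested genes). Cdkn1a, which encodes the inhibitor p21, rose from 9.43, 8.86 and 8.90 FPKM to 66.4, 42.7 and 66.8 FPKM (log2 fold change 2.65, SE 0.18, limma adjusted p = 0.0019). Pcna, the sliding clamp of DNA replication, had a log2 fold change of 0.38 (adjusted p = 0.073) with all CTX samples above all PBS samples. Cdk1 and Ccnb1, the kinase and the cyclin that GADD45 proteins inhibit, had values of -0.23 (adjusted p = 0.35) and -0.54 (adjusted p = 0.18), with all CTX samples below all PBS samples in both. For Cdk1 the gap was small, with CTX replicates 1 and 3 at 19.86 and 19.99 FPKM and PBS replicate 2 at 20.05 FPKM. Its CTX replicate 2 was at 15.1 FPKM. Over all tested genes, 15.0% had all CTX samples above all PBS samples and 14.1% had them below. The median of the 4 was 0.07.

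The kinases of the p38 and JNK cascade gave no call. Of 12 genes on the list 10 were tested, and none passed in either direction by limma or by limma voom on the rebuilt reads, and 1 gene higher and 1 lower had an unadjusted p below 0.05, shares near those over all tested genes (10.5% and 9.10%). Map3k4, the kinase that GADD45 proteins bind, was at 10.3, 9.71 and 9.70 FPKM after PBS and 9.45, 13.7 and 10.2 FPKM after CTX (log2 fold change 0.15, adjusted p = 0.58). Map2k4, an activator of JNK, had a log2 fold change of 0.25 (adjusted p = 0.14) and Mapk14, which encodes p38 alpha, one of -0.05 (adjusted p = 0.75). The median of the list was -0.01. Phosphorylation, by which these kinases are regulated, is not seen in RNA.

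Of 11 tested genes tied to GADD45 in DNA demethylation, none was called by limma or by limma voom. At an unadjusted p below 0.05 the count was 1 higher and 0 lower by limma, and 1 higher and 1 lower by voom. The gene that was higher, Ercc5 (XPG, an endonuclease of nucleotide excision repair), was at 4.48, 4.42 and 4.36 FPKM after PBS and 6.67, 5.32 and 6.76 FPKM after CTX (log2 fold change 0.48, adjusted p = 0.11). Tet1, Tet2 and Tet3, the enzymes that oxidise methylcytosine, had log2 fold changes of 0.08, 0.00 and -0.06, and Tdg, the glycosylase that removes the oxidised bases, was at 3.58 to 4.73 FPKM after PBS and 3.83 to 4.44 FPKM after CTX. The median of the list was -0.06.

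**Figure D3:**
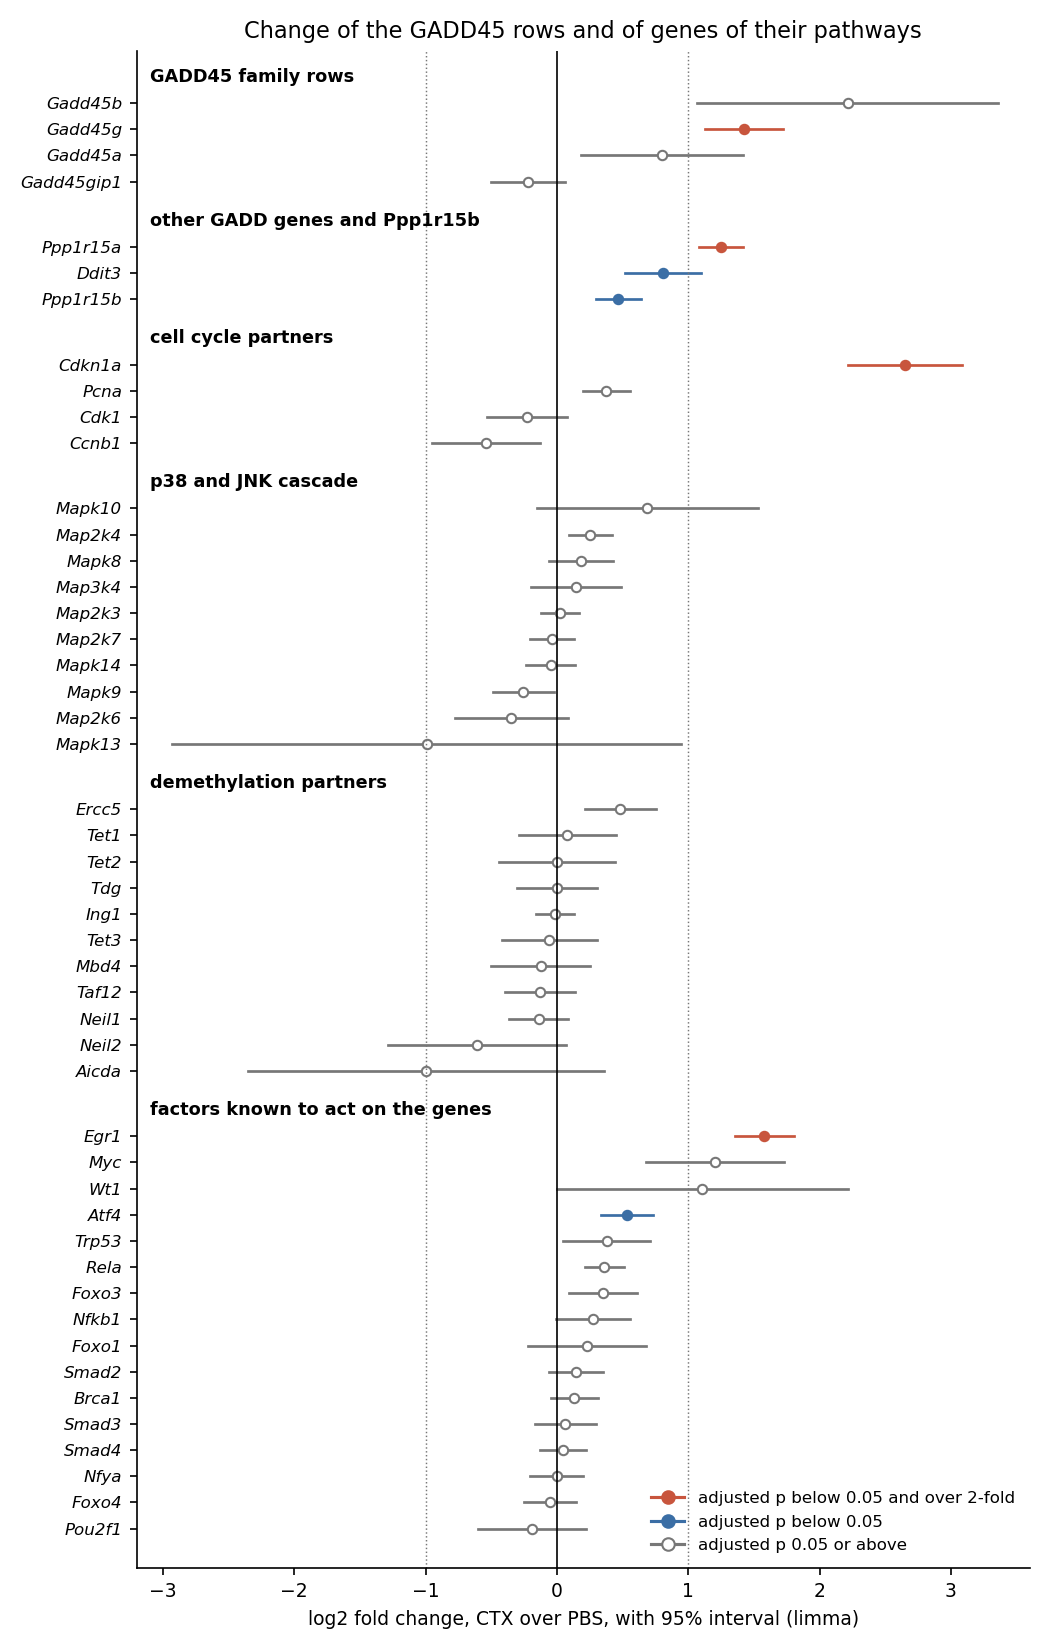
Log2 fold change of CTX over PBS (horizontal axis, limma, 3 samples per group) with its 95% interval for the 4 GADD45 rows and the tested genes of 5 lists, with dotted lines at 2-fold and colours for the calls. Gadd45g, Ppp1r15a, Cdkn1a and Egr1 are the 4 called genes, and the interval of Gadd45b (1.07 to 3.36) is the widest among the rows of the family.

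Among 16 transcription factors known to act on GADD45 genes, 1 was called higher by limma (2 by voom) and none lower. The limma shares over all tested genes were 0.802% and 0.159%. At an unadjusted p below 0.05 by limma, 6 of the 16 were higher and 0 lower, against 10.5% and 9.10% of all tested genes. The gene called by limma was Egr1, an immediate-early zinc finger factor, at 310, 317 and 277 FPKM after PBS and 902, 855 and 939 FPKM after CTX (log2 fold change 1.58, SE 0.09, limma adjusted p = 0.0012). Atf4, the main factor of the integrated stress response, had an adjusted p of 0.035 and a log2 fold change of 0.53. All CTX samples were above all PBS samples in 9 of the 16 and below them in 1 (15.0% and 14.1% of all tested genes). The median log2 fold change was 0.25. Trp53, the gene of p53, which is mostly controlled as a protein, had a log2 fold change of 0.38 (adjusted p = 0.22). Myc, which represses Gadd45a, was at 32.8, 31.3 and 30.7 FPKM after PBS and 53.1, 100.4 and 72.6 FPKM after CTX (log2 fold change 1.205, adjusted p = 0.058), and limma voom did call it. Like Gadd45b, Myc was highest in CTX replicate 2 and lowest of the CTX samples in replicate 1. The same order was seen for Wt1, at 3.39, 13.6 and 6.09 FPKM after CTX and 2.88 to 3.06 FPKM after PBS (adjusted p = 0.26). Foxo3 (log2 fold change 0.35, adjusted p = 0.17) and Rela, a subunit of NF-kB (0.36, adjusted p = 0.050), did not pass.

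The 3 paralogs were next set beside the responses they are usually counted with. Of 20 targets of p53, 14 were called higher by limma (13 by voom) and none lower, with a median log2 fold change of 2.08. Of 18 immediate-early genes, 15 were called higher by limma (16 by voom) and none lower, with a median of 1.81. Over all tested genes, limma called 0.802% higher and 0.159% lower, and the median was -0.01. In both lists 0 genes had an unadjusted p below 0.05 downward by either tool. Without CTX replicate 2 the counts were again 14 and 15. Against these lists, Gadd45a, a p53 target that was kept out of the list, had a change of 0.80 on the same log2 scale. Without CTX replicate 2 it was 0.49. With all samples in the fit, Mdm2 was at 0.87 and Bax at 0.81, and both passed the test of p. Unlike Gadd45a, both were lowest of the CTX samples in replicate 2, at 18.7 and 54.4 FPKM. The change of Gadd45a was far under those of Cdkn1a (2.65) and Phlda3 (3.67).

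The order of the CTX samples was not the same for the 3 paralogs and these lists. Of the 14 called p53 targets, 12 were lowest in CTX replicate 2 among the CTX samples and 1, Gdf15, was highest there. Of the 15 called immediate-early genes, 12 were highest in CTX replicate 3 and 3, Jun, Ier3 and Maff, in CTX replicate 2. Gadd45a and Gadd45b were both highest in CTX replicate 2, at 2.69 and 9.74 times the PBS mean, whereas Gadd45g was highest in CTX replicate 3, at 3.19 times the PBS mean. In CTX replicate 1 the multiples were 1.499 for Gadd45a, 2.33 for Gadd45b and 2.42 for Gadd45g. The summed leukocyte markers were also highest in CTX replicate 2 (66.1 FPKM, of which 45.8 were Lyz2), but Ptprc and Itgam were not raised there. The part of leukocytes in the levels of Gadd45a and Gadd45b was not tested. Over all genes called higher, 40 of the 116 were highest in CTX replicate 2 and 56 were lowest there.

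**Figure D4:**
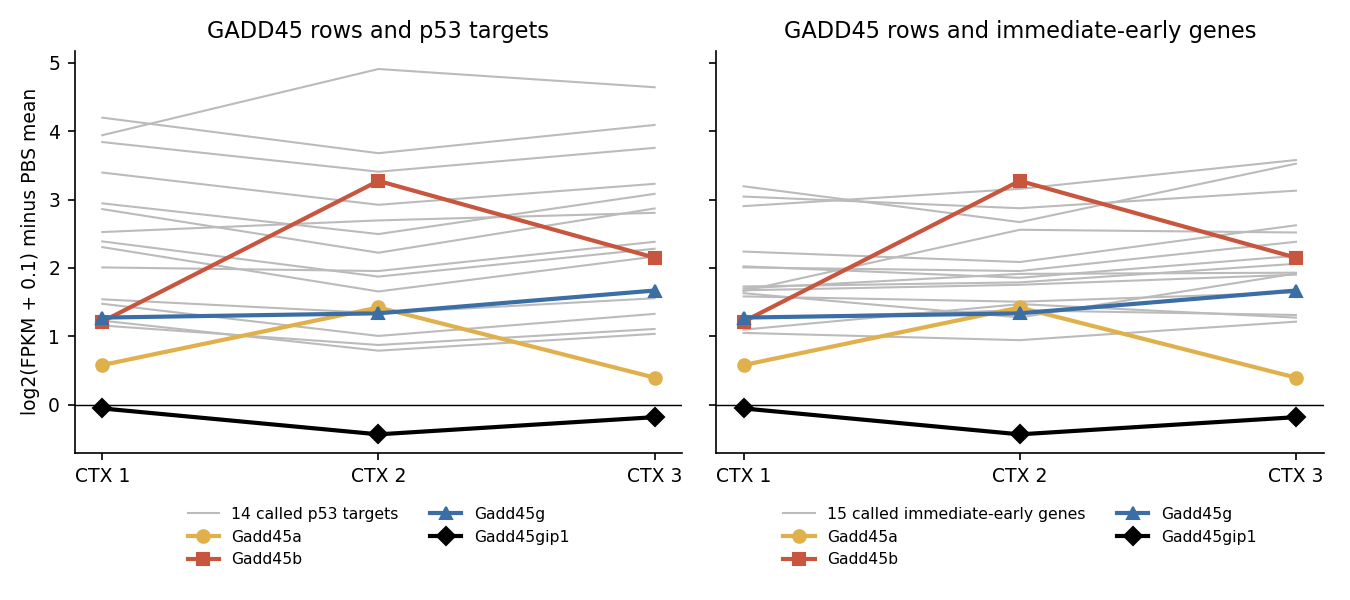
Log2(FPKM + 0.1) minus the PBS mean in each CTX sample (the samples have no order, and lines only join the values of 1 gene) for the 4 GADD45 rows and, in grey, the 14 called p53 targets (left) and the 15 called immediate-early genes (right). Gadd45a and Gadd45b peak in CTX replicate 2, where 12 of the 14 p53 targets are lowest.

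The genes whose profiles over the 6 samples were most like those of the members were found by the root mean square distance between log2 profiles centred on the PBS mean. The nearest to Gadd45a was Nbl1, a secreted antagonist of bone morphogenetic proteins, at a distance of 0.06, with 4.91 to 5.59 FPKM after PBS and 7.27, 14.2 and 6.65 FPKM after CTX. It was followed by Msantd3, Rarg (a retinoic acid receptor), Plin2 (a coat protein of lipid droplets) and Sardh, and none of these 5 was called. The nearest to Gadd45b was Gem, a small GTPase, at a distance of 0.12, with 12.4 to 14.4 FPKM after PBS and 34.8, 123 and 70.0 FPKM after CTX (log2 fold change 2.29, adjusted p = 0.062). Myocd, Edn1 (endothelin), Cxcl5 and Klf10 followed, and of the 5 Edn1 and Klf10 were called. The nearest to Gadd45g was Rhob, another small GTPase, at 0.10, with 169 to 177 FPKM after PBS and 390, 459 and 547 FPKM after CTX (log2 fold change 1.41, adjusted p = 0.0052). Psrc1, Tnfaip3 (an inhibitor of NF-kB signalling) and Ppp1r15a were also among the nearest, and all of these were called. Between the paralogs themselves the distances were larger, at 0.60 for Gadd45a and Gadd45g, 0.82 for Gadd45b and Gadd45g and 1.07 for Gadd45a and Gadd45b. The nearest genes are the closest of all 14463 tested, so their smaller distances say nothing about the paralogs.

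Gadd45gip1 was set beside the mitochondrial ribosomal protein genes, since its product is part of that ribosome. Of 78 protein-coding Mrpl and Mrps genes 77 were tested, and none was called by limma or by limma voom. At an unadjusted p below 0.05, limma gave 1 higher and 2 lower of the 77, where 10.5% of all tested genes were higher and 9.10% lower, and voom gave 1 higher and 5 lower. The log2 fold changes ran from -0.36 for Mrps21 (adjusted p = 0.18) to 0.25 for Mrpl9 (adjusted p = 0.13), with a median of -0.05, the value of Mrpl42. All CTX samples were above all PBS samples in 3 of the 77 and below them in 6, where all tested genes gave 15.0% and 14.1%. The value of Gadd45gip1, -0.22, lay inside this range but in its lower part, nearer to the lowest value than to the median. Its nearest profile in the table was that of Tmem256 at a distance of 0.01, with Fkbp1a, Phyh, Fam96a and Pfdn4 next, and none of these 5 was called.

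**Figure D5:**
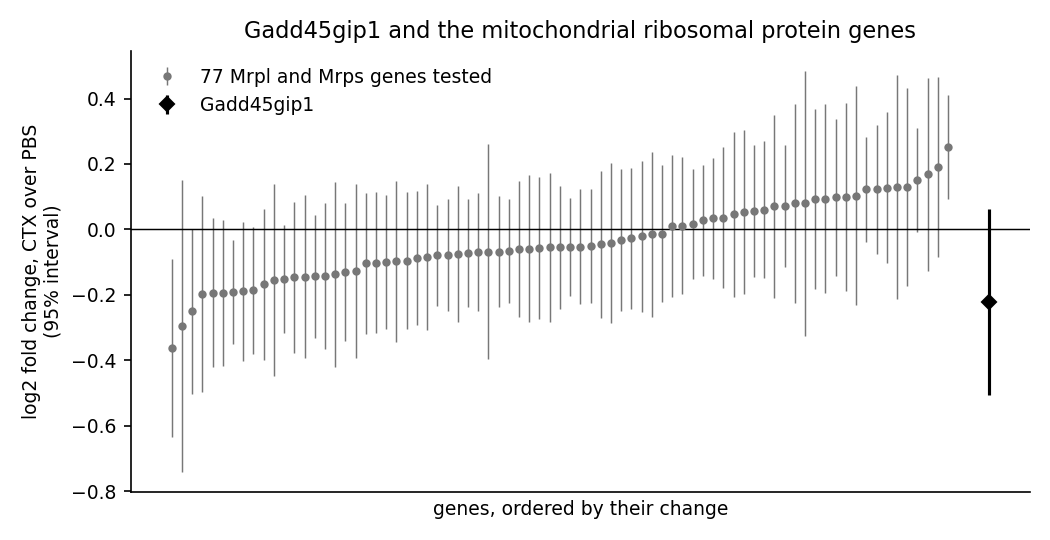
Log2 fold change of CTX over PBS with its 95% interval (limma, 3 samples per group) for the 77 tested Mrpl and Mrps genes in ascending order (grey) and for Gadd45gip1 (black). The grey points run from -0.36 to 0.25, and Gadd45gip1 at -0.22 lies in the lower part of that range.

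Genes within 100 kb of the members were also counted, by a rule added after the values had been seen. Of the 17 tested neighbours, 1 of Gadd45a, 6 of Gadd45b, 1 of Gadd45g and 9 of Gadd45gip1, none was called by limma or by limma voom. At an unadjusted p below 0.05 by limma, 2 were higher and 2 lower, shares near those over all tested genes (10.5% and 9.10%). The neighbours of Gadd45b had log2 fold changes of -0.38 to -0.04, and those of Gadd45gip1 of -0.61 to 0.35. Gng12, the tested neighbour of Gadd45a, had one of 0.26 (adjusted p = 0.17), and Sema4d, that of Gadd45g, one of -0.03 (adjusted p = 0.92). On the other strand, E230016M11Rik shared 859 bases with the span of Gadd45a and was at 0.22 to 0.51 FPKM in all samples. Whether the counting used strand is not given in the sources used here, so the values of Gadd45a are uncertain by the reads that fall in this shared stretch.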

How the data were processed

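The data were RNA-seq of mouse GCs in 6 samples. The authors deposited FPKM values with gene lengths for 54532 genes. The submitters' processing notes name CASAVA 1.8, fastp, HISAT2 2.0.5, featureCounts 1.5.0-p3, DESeq2 1.20.0 and mm10 (GRCm38), without options. The table also holds the authors' own comparison (fold changes, p-values and group means), which was not used.

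FPKM times length gave whole reads (tolerance 0.01) for 100% of values above 0, so depth was known, and a scaling between samples by the authors was part of the values. No 2 samples were identical. Log2(FPKM + 0.1) of the 14463 genes averaging 0.5 FPKM or more was fitted with limma 3.58.1 (lmFit, eBayes with trend) in R 4.3.3, with Benjamini-Hochberg adjustment over all of them. Genes past adjusted p < 0.05 and 2-fold were called, and all adjusted p-values of genes are from this fit unless another is named. The code was tested on simulated data. Exact two-sided permutation tests used SciPy 1.17.1, and sequences were aligned with Biopython 1.88.

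Genes named were the 4 members, genes of lists counted whole, the 5 tested genes with the nearest profile to each member (1 is not reported here), and the highest, lowest and median Mrpl or Mrps gene. The members and lists (partners, factors, p53 targets, immediate-early genes and cell type markers) were chosen with earlier results of these data known. Alternatives tried were a pseudocount of 1 or 0.01, leaving out the filter, a mean FPKM of at least 5, quantile normalization, library totals, limma voom on rebuilt reads, no fold threshold, the replicate number as a block, and each sample left out. Replicate numbers did not pair the samples, which came from different mice.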

Additional observations from a re-analysis of the deposited data

How the results depend on the processing

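Gadd45a, Gadd45b, Gadd45g and Gadd45gip1 kept their direction under all 14 alternatives run for each. Gadd45a, Gadd45g and Gadd45gip1 also kept their side of the call, with adjusted p-values of limma from 0.029 to 0.435, 0.0028 to 0.046 and 0.164 to 0.573. Gadd45b gained a call without CTX replicate 1 or CTX replicate 2, and its adjusted p ran from 0.020 to 0.312. With each sample left out in turn, the log2 fold change ran from 0.49 to 1.00 for Gadd45a, 1.68 to 2.71 for Gadd45b, 1.306 to 1.504 for Gadd45g and -0.31 to -0.12 for Gadd45gip1, and 1 to 2 members were called higher. With a sample left out, the fit keeps 2 samples in that group. The share of Gadd45g in the sum changed by -6.68 to 5.76 percentage points with each sample left out, so its direction rested on CTX replicate 2. Over all tested genes, 116 were called higher and 23 lower, and 57 to 142 higher and 1 to 68 lower with each sample left out. Without the 2-fold rule these were 202 and 52, and with a mean FPKM of at least 5, which tests fewer genes, 7 were called lower. With the replicate block, 48 genes were called higher and 2 lower, Gadd45g kept its call (adjusted p = 0.027), no call of the other members changed, and the cause of the lower counts was not tested. Same-numbered samples correlated at 0.056, 0.024 and 0.006 in their deviations from the group means, so they share only a number. The scaling alternatives moved the median of all genes from -0.01 to at most -0.04 on the log2 scale. For depth, 264 reads or more stood behind each value of the members.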
